A study of Mus musculus with 36 samples.

Results

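Brain capillaries are built from endothelial cells sealed by tight junctions, with pericytes pressed against their outer wall and smooth muscle cells around arterioles. Endothelial cells form the blood-brain barrier, which admits nutrients through dedicated transporters and keeps most blood proteins out. Pericytes are recruited and held through platelet-derived growth factor signalling, and smooth muscle sets the vessel's diameter. The 10 genes described here were chosen by symbol as markers of these cells: 7 of endothelial cells (Cldn5, Pecam1, Flt1, Kdr, Cdh5, Slco1a4 and Mfsd2a) and 3 of mural cells, the pericytes and smooth muscle cells (Pdgfrb, Rgs5 and Acta2). All 10 were found among the 24421 gene symbols of the deposited tables and all 10 passed the filter on low values in every comparison.

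The study measured polyadenylated RNA of mouse hippocampus in 36 libraries, 6 in each of 6 groups with 3 females and 3 males per group. The C57BL/6 arm held old mice of 18 months given a nanoligomer, old control mice of 18 months and young control mice of 8 months. The transgenic arm held APP/PS1 mice given the nanoligomer, APP/PS1 control mice and non-carrier littermate controls, all of 4 months. APP/PS1 mice carry transgenes that raise amyloid beta; the sources used here state neither the line nor the promoter that drives the transgenes, nor the nanoligomer's target, dose or schedule, although the series title speaks of lowering NF-kB and NLRP3. Nor do they say whether each library came from 1 mouse, so p-values measure the spread between libraries, part of which may be technical.

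The deposited values are read counts divided by a size factor per library. Whole reads could be recovered from them, and the 35 libraries used held 27.6 to 46.3 M reads each. Female 3 of the APP/PS1 nanoligomer group held 0.913 M reads and was left out throughout, so that group had 5 libraries. The 10 hippocampus markers summed to between 339 and 1052 CPM (reads of a gene per M reads of its library) in every library used. Markers of neighbouring tissue stood high in a few libraries: the 13 choroid plexus markers ranged from 15.4 to 4318 CPM, above 1000 CPM in 3 young and 2 APP/PS1 nanoligomer libraries, and the 7 striatum markers ranged from 92.1 to 1821 CPM. In whole tissue, fewer cells of a type and less RNA per cell cannot be told apart.

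Stretches of sequence before the transcription start are shown here for 4 members, a tight junction gene, a growth factor receptor, a transporter and the smooth muscle gene with the widest spread. Of the 10 members, 7 had a window in the RefSeq promoter table for GRCm38.p6 (the build also called mm10), and each window covers 250 bases upstream of the start RefSeq gives. Endothelial promoters are known to bind ETS factors, and smooth muscle promoters to bind serum response factor at CArG boxes. Capitals mark AGGAAG, 1 longer form of the ETS core GGAA, on either strand. The shorter core was not searched for and stands unmarked in some windows. Cldn5 lies at chr16:18776847-18778262 on the plus strand, Flt1 at chr5:147561604-147726011 on the minus strand and Slco1a4 at chr6:141805440-141856199 on the minus strand.
Cldn5: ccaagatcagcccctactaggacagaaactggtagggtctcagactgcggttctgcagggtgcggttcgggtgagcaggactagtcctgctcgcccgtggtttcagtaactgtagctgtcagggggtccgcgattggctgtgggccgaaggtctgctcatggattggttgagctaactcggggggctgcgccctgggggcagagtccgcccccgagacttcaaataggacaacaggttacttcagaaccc
Flt1: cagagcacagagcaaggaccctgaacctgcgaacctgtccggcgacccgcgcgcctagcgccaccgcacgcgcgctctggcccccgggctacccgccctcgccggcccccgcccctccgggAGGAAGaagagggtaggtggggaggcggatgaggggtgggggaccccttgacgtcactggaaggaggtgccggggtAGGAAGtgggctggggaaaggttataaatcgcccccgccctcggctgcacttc
Slco1a4: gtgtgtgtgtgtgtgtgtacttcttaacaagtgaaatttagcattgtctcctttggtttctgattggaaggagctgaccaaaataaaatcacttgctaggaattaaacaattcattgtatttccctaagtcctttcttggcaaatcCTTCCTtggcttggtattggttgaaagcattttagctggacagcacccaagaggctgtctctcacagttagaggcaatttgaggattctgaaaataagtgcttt
Flt1 held 2 AGGAAG matches, which begin 129 and 53 bases before its start, and Slco1a4 held 1, which begins 104 bases before its start. The windows of Cldn5, Kdr, Mfsd2a, Rgs5 and Acta2 held no AGGAAG, which does not mean that they lack the shorter core. AGGAAG occurs in 29.5% of 32851 RefSeq windows of this length and 2 or more times in 6.25% of them.
Acta2, at chr19:34241090-34255590 on the minus strand, is shown as 2 stretches of 30 bases, chr19:34255438-34255467 and chr19:34255388-34255417, with capitals on a CArG box in which 1 G or C was allowed in the A and T core. That looser form was chosen after the window had been read.
Acta2, upstream box: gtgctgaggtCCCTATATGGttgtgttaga
Acta2, downstream box: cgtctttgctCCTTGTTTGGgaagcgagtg
The boxes begin 84 and 34 bases before the RefSeq start. Kdr and Slco1a4 held 1 match each at 236 and 120 bases before their starts. The looser box occurs in 8.59% of the windows and 2 or more times in 0.67%, while the strict box occurs in 1.47% and was not found in the windows of the 7 members. A match describes letters and says nothing of binding, and the annotated first exon of Acta2 in GENCODE begins upstream of the RefSeq start, so that both stretches lie inside it.

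The level of each gene was compared across groups as CPM of the recovered reads, which puts the separately scaled tables on 1 scale, and between genes as CPM per kilobase of annotated exon (GENCODE annotation of GRCm38). Cldn5, the claudin that seals the tight junctions of the barrier, had the highest level per length, with a median of 26.3 CPM per kilobase over 35 libraries. Mfsd2a, the carrier of lysophosphatidylcholine-bound omega-3 fatty acids, followed at 7.60, Rgs5, a regulator of G protein signalling abundant in pericytes, at 7.22, and Pdgfrb, the receptor that holds pericytes on the vessel, at 6.72 CPM per kilobase. Flt1 was at 5.93, Cdh5 at 5.43, Slco1a4 at 4.95, Pecam1 at 4.13, Acta2 at 3.21 and Kdr at 2.44 CPM per kilobase. The length was that of all annotated exons of a gene joined, 13.5 kilobases for Flt1 and 1.42 for Cldn5. This order depends on that choice, since in plain CPM Flt1 was highest, with a median of 80.1 against 37.2 for Cldn5. Every member had reads in each library used, with the lowest read count, 94, for Acta2.

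Among the endothelial members the junction and adhesion genes Pecam1 and Cldn5 had the largest ratios of highest to lowest group mean (both 1.31). Cldn5 ranged from 29.9 to 42.3 CPM with a median of 36.8 in old nanoligomer libraries, from 29.2 to 65.7 with a median of 39.6 in old libraries and from 40.3 to 46.7 with a median of 40.7 in young libraries. In the transgenic arm Cldn5 was at 29.5, 32.5, 31.0, 33.9 and 33.2 CPM in the 5 APP/PS1 nanoligomer libraries, between 31.0 and 39.6 with a median of 36.7 in APP/PS1 libraries and between 33.0 and 43.8 with a median of 34.7 in littermate libraries. Old male 3 stood alone at the top, and the young libraries lay above every library of both APP/PS1 groups. These groups differ from them in age, treatment or genotype at once, so that these cannot be told apart. The share of all genes free of overlap was not counted for these pairs. Ordered by mean, Cldn5 ran from young (41.9 CPM) through old, old nanoligomer, littermate and APP/PS1 to APP/PS1 nanoligomer (32.0 CPM), and only the last neighbouring pair differed by more than the larger of their SDs. With TMM scaling (a trimmed mean that balances library composition) old stood above young. Pecam1, an adhesion molecule between endothelial cells, had group means between 22.1 CPM in APP/PS1 nanoligomer and 29.0 CPM in old libraries, and Cdh5, the cadherin of endothelial junctions, between 21.9 CPM in APP/PS1 nanoligomer and 24.9 CPM in littermate libraries.

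The 2 receptors of vascular endothelial growth factor differed in how far their group means lay apart. Flt1, a high-affinity receptor that also acts as a decoy, had group means from 79.3 CPM in littermates to 86.8 CPM in old nanoligomer libraries, the smallest ratio of highest to lowest group mean among the members (1.10). Kdr, the main signalling receptor, averaged 19.4 ± 3.4 CPM in APP/PS1 nanoligomer (SD, n = 5) and 24.8 ± 6.1 CPM in APP/PS1 libraries (SD, n = 6), its lowest and highest group means (ratio 1.28). In the order of groups by mean, no neighbours differed by more than the larger SD for these receptors, nor for any member other than Cldn5.

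The transporters overlapped between groups. Slco1a4, an organic anion carrier of barrier endothelium, had its highest group mean in APP/PS1 libraries (34.5 ± 2.8 CPM, SD, n = 6) and its lowest in old nanoligomer libraries (28.0 ± 4.3 CPM, SD, n = 6). Mfsd2a ranged from 11.4 CPM, in a male of the old nanoligomer group, to 26.8 CPM, in a female of the APP/PS1 nanoligomer group. Neither had a pair of groups without overlap.

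Among mural genes, Acta2, the smooth muscle actin, stood apart in its spread. Acta2 ranged from 2.999 to 21.9 CPM over 35 libraries, a ratio of 7.32, while the other 9 members had ratios between 1.57 and 2.35. The highest Acta2 value was that of littermate female 3, at 21.9 CPM. The SD of Acta2 on the log2 scale after removal of group and sex means was 0.43, larger than that of 90.2% of 1709 genes with a like level, while the SDs of the other members were 0.13 to 0.19. Pdgfrb had group means from 33.6 CPM in APP/PS1 nanoligomer to 41.9 CPM in littermate libraries. In CPM every littermate library lay narrowly above every APP/PS1 nanoligomer library (lowest littermate 36.6, highest nanoligomer 36.5). With TMM scaling these 2 libraries were at 35.5 and 35.9, so the groups overlapped. The groups differ in genotype and treatment at once, and the share of all genes free of overlap was not counted for this pair. Rgs5 had group means from 31.3 CPM in young to 35.9 CPM in APP/PS1 nanoligomer libraries, with no pair of groups free of overlap.

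**Figure D1:**
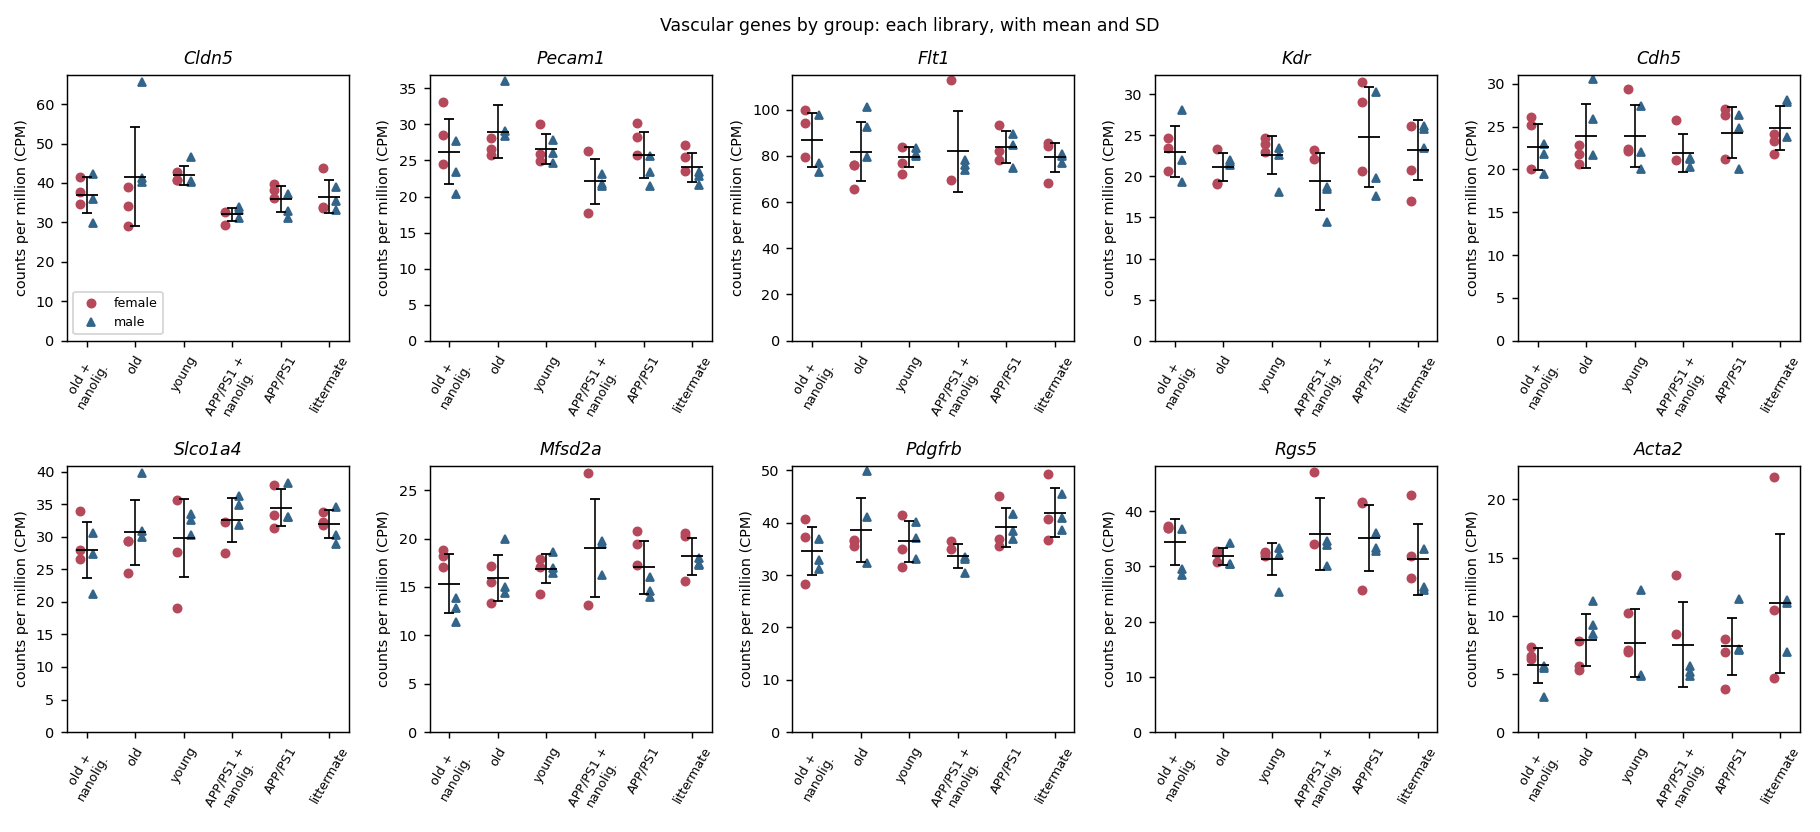
Level of the 10 members in CPM, for old nanoligomer, old, young, APP/PS1 nanoligomer, APP/PS1 and littermate libraries (circles, females; triangles, males; bars, mean and SD). Acta2 spreads from 2.999 to 21.9 CPM, and the other members by a ratio of at most 2.35.

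Whether age moved the vascular genes was asked by setting old against young libraries, with a linear model (limma) on log2 of the deposited value plus 1, sex as a covariate and p-values adjusted by Benjamini-Hochberg over 16626 genes. None of the 10 members was called at an adjusted p under 0.05, against 6 of all genes (0.0361%); edgeR called 6 genes (0.0361%) and DESeq2 123 (0.74%), none of them a member. No member passed an unadjusted p under 0.05, which 6.13% of all genes did. The log2 fold changes lay between -0.080 for Kdr and 0.14 for Pecam1, with a median of 0.044 against -0.0039 for all genes tested. These values rest on single libraries: the median of the members was -0.0032 without old male 3, 0.0017 without young male 2, 0.0079 without young male 3 and 0.086 without young female 2. Pecam1 was at 0.074 without old male 3 and at 0.19 without young female 2, the only single library whose removal put a member under an unadjusted p of 0.05. Kdr was at -0.13 without young male 2 and at -0.038 without old female 2. The 95% limits of 9 members lay within 1.5-fold in either direction, and those of Acta2 reached from 0.744-fold to 1.55-fold. For Cldn5 the limits were 0.793-fold to 1.19-fold and for Pdgfrb 0.912-fold to 1.25-fold. The 13 choroid plexus markers all had negative estimates in this comparison (median -1.96), their summed level being 25.9 to 266 CPM in old and 15.4 to 4318 CPM in young libraries; their part in the members' values was not tested beyond leaving out the 3 young libraries above 1000 CPM, after which Cldn5 was at -0.11, Pdgfrb at 0.17 and Acta2 at 0.25 and no member was called. All 7 striatum markers also had negative estimates (median -0.52) and all 10 hippocampus markers positive ones (median 0.36), and without the libraries above 300 CPM of striatum markers (old male 3 and young male 2) Cldn5 was at -0.18 and Pecam1 at 0.077 and no member was called.

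Whether the nanoligomer moved them in old mice was asked in 16517 genes of the old nanoligomer and old libraries. None of the 10 members was called by limma, edgeR or DESeq2, against 0 of all genes by limma (0.0%), 0 by edgeR (0.0%) and 2 by DESeq2 (0.0121%). By limma no member passed an unadjusted p under 0.05, which 1192 genes did (7.22%). By DESeq2 1 member did, as did 1320 of all genes. Acta2 had the largest estimate, a log2 fold change of -0.48 ± 0.23 (SE; limits 0.507-fold to 1.02-fold; limma adjusted p = 0.678). Acta2 ranged from 2.999 to 7.29 CPM with a median of 6.00 in old nanoligomer libraries and from 5.31 to 11.3 CPM with a median of 8.10 in old libraries, so the groups overlapped. The Acta2 log2 fold change was -0.28 without old nanoligomer male 1, and it was under an unadjusted p of 0.05 without old female 1 (-0.59), old female 3 (-0.57) or old nanoligomer female 3 (-0.56). The other members had log2 fold changes from -0.16 for Pdgfrb to 0.11 for Kdr, all with limits inside 1.5-fold. Pdgfrb was at -0.085 without old male 3, and Kdr was at 0.048 without old nanoligomer male 3 and at 0.17 without old nanoligomer male 1. Like that of Acta2, the estimates of 14 of 15 fibroblast markers were negative (median -0.44), as were those of 10 of 10 hippocampus markers (median -0.59), while 6 of 7 striatum markers were positive (median 0.58); the summed fibroblast level was 197 to 310 CPM in old nanoligomer and 227 to 337 CPM in old libraries, and the part of the fibroblast and hippocampus markers in the Acta2 value was not tested. Without the 2 libraries above 300 CPM of striatum markers (old nanoligomer female 3 and old male 3) Acta2 was at -0.44.

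APP/PS1 and littermate libraries were compared over 16475 genes. None of the 10 members was called by limma, edgeR or DESeq2, against 8 of all genes by limma (0.0486%), 8 by edgeR (0.0486%) and 253 by DESeq2 (1.54%). By limma no member passed an unadjusted p under 0.05, which 1677 genes did (10.2%). Acta2 was at 3.68 to 11.4 CPM with a median of 7.10 in APP/PS1 libraries and at 4.63 to 21.9 CPM with a median of 10.8 in littermate libraries. Its log2 fold change of -0.49 ± 0.33 (SE, limma adjusted p = 0.661) had limits from 0.433-fold to 1.17-fold, the widest of any member, and was -0.21 without littermate female 3 and -0.70 without littermate female 2, where its unadjusted p was 0.0429 by limma. Rgs5 had the largest positive estimate, 0.18 ± 0.15 (SE), and the other 8 members lay between -0.096 for Mfsd2a and 0.12 for Slco1a4, all with limits inside 1.5-fold. Without APP/PS1 female 1, the library above 300 CPM of striatum markers, Rgs5 was at 0.31 and Slco1a4 at 0.17, and both were then under an unadjusted p of 0.05 by limma (0.0117 for Rgs5 and 0.0416 for Slco1a4), with adjusted p = 0.263 and 0.401. Beside the negative Acta2 estimate stood negative estimates of 14 of 15 fibroblast and meninges markers (median -0.90), 13 of 13 choroid plexus markers (median -0.92), 11 of 14 smooth muscle markers (median -0.24) and 5 of 5 blood markers tested (median -0.46). The fibroblast markers summed to 188 to 393 CPM in APP/PS1 and 216 to 507 CPM in littermate libraries, and the highest sum, like the highest Acta2, was that of littermate female 3. Estimates of 9 of 10 hippocampus markers were negative (median -0.89) and those of 7 of 7 striatum markers positive (median 1.03), the striatum markers summing to 103 to 1705 CPM in APP/PS1 and 95.4 to 133 CPM in littermate libraries. Acta2 was at -0.49 without APP/PS1 female 1 too. The part of the fibroblast, choroid plexus, smooth muscle, blood and hippocampus markers in the Acta2 estimate was not tested by leaving out libraries.

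In APP/PS1 nanoligomer against APP/PS1 libraries, 16124 genes were tested. None of the 10 members was called by limma, edgeR or DESeq2, against 0 of all genes by limma (0.0%), 0 by edgeR (0.0%) and 7 by DESeq2 (0.0434%). Pdgfrb was at 34.9, 36.5, 33.5, 33.0 and 30.3 CPM in the 5 APP/PS1 nanoligomer libraries and at 35.6 to 45.2 CPM with a median of 37.7 in the 6 APP/PS1 libraries. In CPM only 1 APP/PS1 nanoligomer library reached the APP/PS1 range. On the deposited values used in the fit the groups overlapped more. There the nanoligomer median (961) lay above the lowest APP/PS1 value (956). The log2 fold change of Pdgfrb was -0.19 ± 0.080 (SE; limits 0.774-fold to 0.988-fold; limma adjusted p = 0.997), and Pdgfrb was the only member under an unadjusted p of 0.05, which 477 genes were (2.96%). It was not under that p without APP/PS1 female 3, male 1 or male 3 or any of the 3 nanoligomer males, each left out alone, and ranged from -0.23 to -0.16 over the libraries left out. Kdr had the largest estimate, -0.29 ± 0.17 (SE; limits 0.637-fold to 1.05-fold), followed by Pecam1 at -0.20 ± 0.11 (SE). Mfsd2a was at 0.18 ± 0.16 (SE) and Acta2 at 0.020 ± 0.31 (SE). Choroid plexus markers all had positive estimates (13 of 13, median 2.57), their sum being 69.5 to 4181 CPM in APP/PS1 nanoligomer and 21.0 to 100.3 CPM in APP/PS1 libraries; without the 2 nanoligomer females above 1000 CPM, which leaves 3 males in that group, Pecam1 was at -0.067, Cldn5 at -0.026 against -0.14 in all libraries, Mfsd2a at 0.33 and Acta2 at -0.66, and no member was called. Of these, Mfsd2a and Acta2 were under an unadjusted p of 0.05, as was Pdgfrb at -0.26. With the sex term that fit compares males with males, so choroid plexus content and sex cannot be told apart in it. Single libraries moved the same genes: without nanoligomer female 1 Pecam1 was at -0.074 and Mfsd2a at 0.38, without nanoligomer female 2 Mfsd2a was at 0.050 and Acta2 at -0.26, and without APP/PS1 male 1 Kdr was at -0.17. Striatum markers had negative estimates in 7 of 7 (median -0.35), with sums of 92.1 to 906 CPM in APP/PS1 nanoligomer and 103 to 1705 CPM in APP/PS1 libraries, and blood markers had positive ones in 5 of 5 tested (median 0.44), with sums of 52.2 to 163 CPM in APP/PS1 nanoligomer and 46.1 to 106 CPM in APP/PS1 libraries. Without the 2 libraries above 300 CPM of striatum markers (nanoligomer male 2 and APP/PS1 female 1) Kdr was at -0.42 and Pdgfrb at -0.24, both under an unadjusted p of 0.05 and neither called. The part of the blood markers was not tested.

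**Figure D2:**
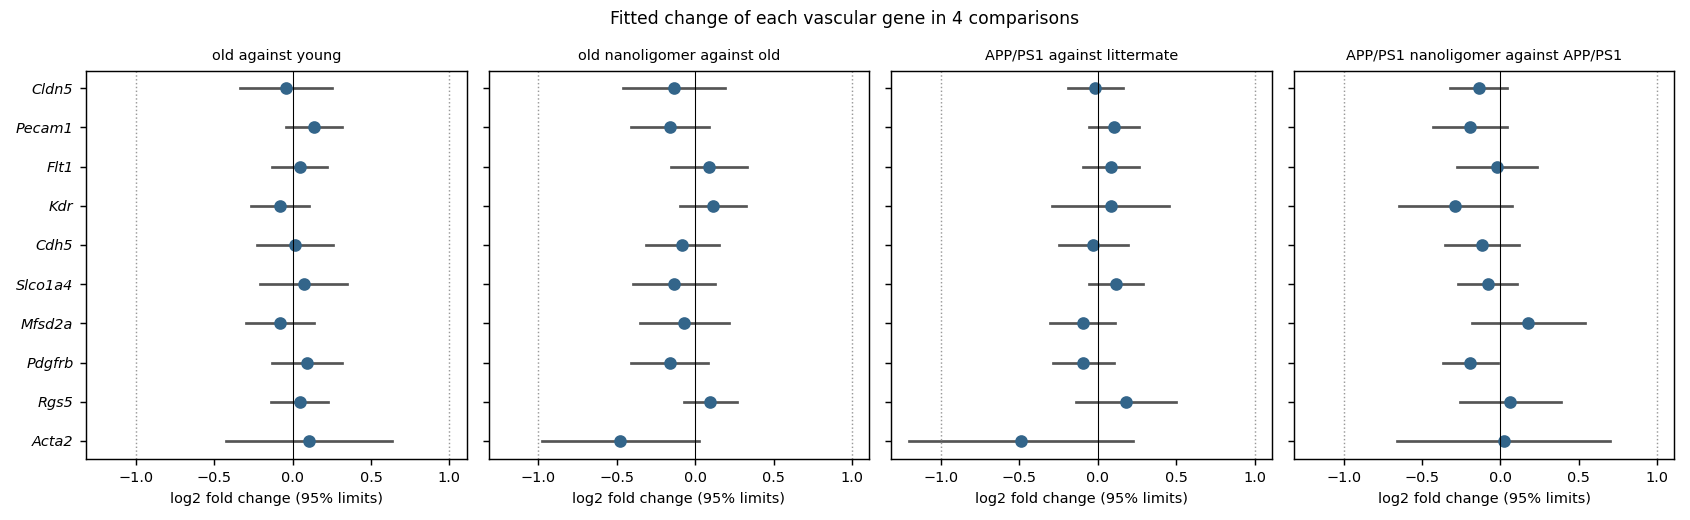
Log2 fold change of each member with its 95% limits in the 4 comparisons; dotted lines mark a 2-fold difference. Of the 40 intervals 39 lie within 2-fold and 35 within 1.5-fold, and the exception at 2-fold is Acta2 in APP/PS1 against littermate libraries.

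In none of the 4 comparisons were the groups of a member free of overlap, as they were for 0.505% of all genes in old against young, 0.254% in old nanoligomer against old, 0.85% in APP/PS1 against littermate and 0.31% in APP/PS1 nanoligomer against APP/PS1 libraries.

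The 2 treatment comparisons share no library, so their effects could be set against each other in 1 joint model. No member's effect differed between the arms by limma at an adjusted p under 0.05, where 0 of 15990 genes did (0.0%) and 695 passed unadjusted (4.35%). The largest difference was that of Acta2, 0.50 ± 0.40 (APP/PS1 effect minus old effect, SE), followed by that of Kdr, -0.40 ± 0.19 (SE), both with limma adjusted p = 0.918.

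Each group held both sexes, and the difference of an effect between males and females was tested as an interaction, with 0 genes called by limma in each of the 4 comparisons (0.0%). At an unadjusted p under 0.05 the interaction held 4.39% of all genes in old against young, 4.71% in old nanoligomer against old, 5.1% in APP/PS1 against littermate and 4.52% in APP/PS1 nanoligomer against APP/PS1 libraries. Acta2 had the largest sex difference of any member, by size of estimate, in each of the 4 comparisons, and in both treatment comparisons it was under that p. In males Acta2 was at 2.999, 5.51 and 5.71 CPM in old nanoligomer libraries, against 8.42, 9.19 and 11.3 CPM in old libraries. In females Acta2 was at 6.30, 6.55 and 7.29 CPM in old nanoligomer libraries, against 5.31, 7.79 and 5.68 CPM in old libraries. The male groups did not overlap and the female groups did. The male effect minus the female effect was -1.17 ± 0.35 (SE) on the log2 scale, with limma adjusted p = 0.914, unadjusted p = 0.00547 and DESeq2 adjusted p = 0.423.

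In APP/PS1 males Acta2 was at 4.79, 5.17 and 5.64 CPM in nanoligomer libraries, against 7.09, 7.11 and 11.4 CPM in APP/PS1 libraries. In females Acta2 was at 8.43 and 13.5 CPM in nanoligomer libraries, against 6.89, 3.68 and 7.98 CPM in APP/PS1 libraries. The groups did not overlap in either sex, as those of 17.8% of all genes did not in females and those of 8.98% in males, and the estimates pointed in opposite directions, 0.87 ± 0.33 in females and -0.66 ± 0.30 in males (SE). The male effect minus the female effect was -1.53 ± 0.45 (SE), with limma adjusted p = 0.924, unadjusted p = 0.00611 and DESeq2 adjusted p = 0.205. Both nanoligomer females had choroid plexus markers above 1000 CPM and fibroblast markers at 479 and 390 CPM, against 159 to 227 CPM of fibroblast markers in the 3 nanoligomer males; their part in the Acta2 values was not tested.

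All 10 members had a more negative effect in males than in females for old nanoligomer against old libraries. Of them, 4 passed an unadjusted p under 0.05 (Acta2, Mfsd2a, Flt1 and Pecam1), where 4.71% of all genes did, and 0 were called (0.0%). Mfsd2a was at 11.4, 12.8 and 13.8 CPM in old nanoligomer males, against 14.4, 14.96 and 20.0 CPM in old males, and at 18.8, 17.1 and 18.2 CPM in old nanoligomer females, against 17.2, 13.3 and 15.5 CPM in old females. Mfsd2a, Pecam1 and Acta2 were lower in old nanoligomer males without overlap, as 13.8% of all genes were free of overlap, and Flt1 and Rgs5 were higher in old nanoligomer females without overlap, against 9.64% of all genes. Old against young, which shares the old libraries, gave 10 of 10 differences of the other sign, 0 of them at an unadjusted p under 0.05, where 4.39% of all genes were. Within a sex, that comparison had 1 member free of overlap in females (Cldn5, lower in old females; 11.9% of all genes) and 1 in males (Pecam1, higher in old males; 9.94%). APP/PS1 against littermate libraries had 0 in females (9.77%) and 2 in males (Mfsd2a lower and Rgs5 higher in APP/PS1 males; 23.3%). APP/PS1 nanoligomer against APP/PS1 libraries had 3 in females (Cldn5 and Pecam1 lower and Acta2 higher in nanoligomer females; 17.8%) and 3 in males (Mfsd2a higher and Pdgfrb and Acta2 lower in nanoligomer males; 8.98%). Old male 3 lay above the mean of old males in 8 of 10 members, and the sex differences were not refitted without it. The share of all genes with the same sign of sex difference was not counted. The members also varied together within libraries, so 10 of 10 does not stand for 10 separate observations.

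**Figure D3:**
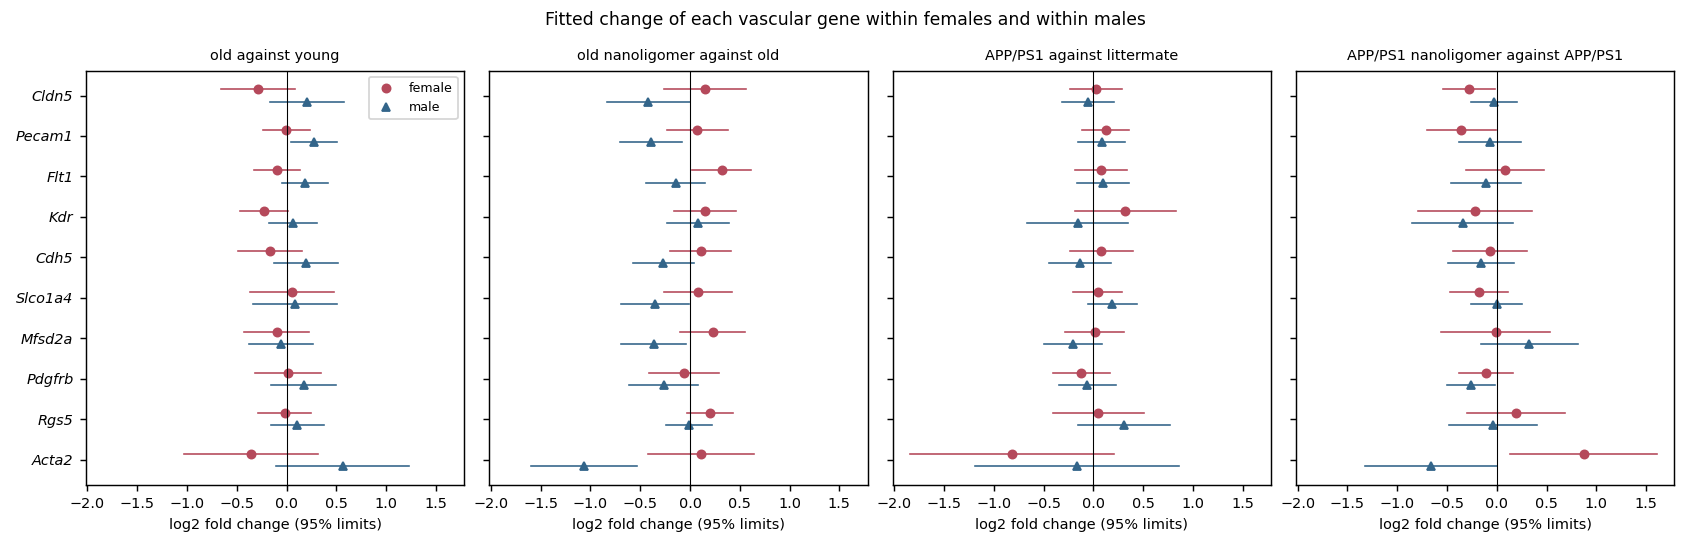
Log2 fold change of each member with its 95% limits within females (circles) and within males (triangles) for the 4 comparisons. Acta2 lies furthest from 0 in males of old nanoligomer against old libraries (-1.06) and on opposite sides of 0 in the sexes of APP/PS1 nanoligomer against APP/PS1 libraries.

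How the members varied together was measured as Pearson's r of log2(CPM + 0.1) over 35 libraries after the mean of each group and sex had been removed, with p-values from 100000 permutations within group and sex and Benjamini-Hochberg adjustment over 45 pairs. The libraries share depth and tissue composition across genes, so r describes both. All 45 pairs were positive, with a median r of 0.39, and 10 had an adjusted permutation p under 0.05. The highest of these was Cdh5 with Pdgfrb (r = 0.66, rho = 0.59, adjusted permutation p = 0.0289 for r and 0.0403 for rho, r = 0.57 without the 2 farthest libraries). Slco1a4 with Pdgfrb (r = 0.64, rho = 0.62, r = 0.60 without the 2 farthest) and Pecam1 with Cdh5 (r = 0.62, rho = 0.61, r = 0.60 without the 2 farthest) had the same adjusted permutation p of 0.0289 for r. Pdgfrb with the other pericyte gene, Rgs5, had r = 0.13 (rho = 0.089, adjusted permutation p = 0.568); the difference between these correlations was not tested. Flt1 with Mfsd2a had the largest r, 0.70, which was 0.47 without the 2 farthest libraries and had an adjusted permutation p of 0.0622.

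The deviations were shared within libraries. All 10 members lay above the mean of their group and sex in old nanoligomer male 3 and all 10 in APP/PS1 nanoligomer female 2, and none did in APP/PS1 nanoligomer female 1, which is the only other library of that group and sex used. Of genes outside the members, chosen by the highest r among 14774 genes, the mean of the 7 endothelial members was most like Tie1 (r = 0.79), Sox17 (0.78) and Tek (0.75), all endothelial genes (2 receptors of the angiopoietin system and a transcription factor), then Polb (0.74) and E230016M11Rik (0.73). The mean of Pdgfrb and Rgs5 was most like Maf (0.82), Ptprb (0.80), Trmt44 (0.73), Dlc1 (0.70) and Fam98a (0.69), of which Ptprb is an endothelial phosphatase. Acta2 was most like Myh11, the smooth muscle myosin heavy chain (0.82), then Nid1 (0.82), Zfp422 (0.80), Vwf (0.79) and Fgd5 (0.79). Of these, Myh11 was among the smooth muscle markers and Vwf among the further endothelial genes listed below. Nid1, Zfp422 and Fgd5 were on no list.

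**Figure D4:**
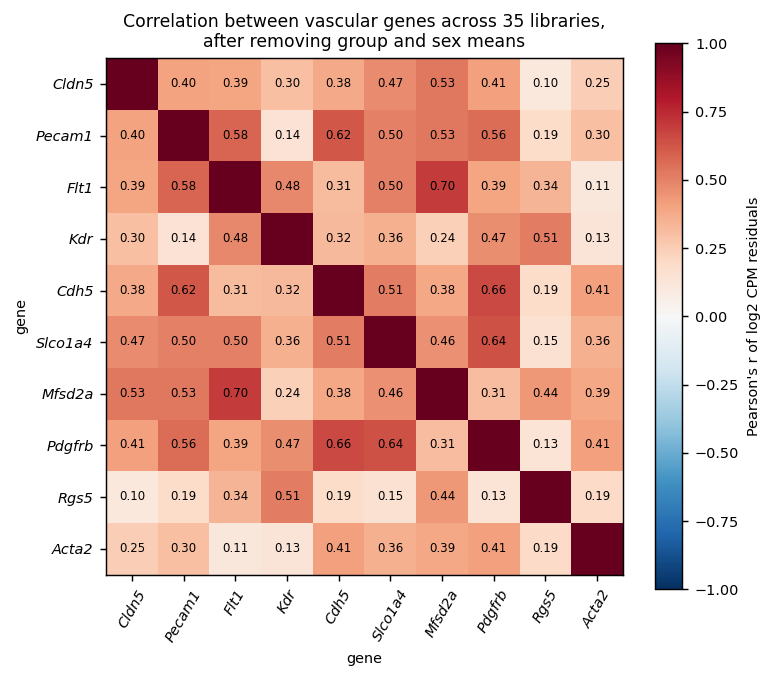
Pearson's r between the members over 35 libraries, after removal of the mean of each group and sex from log2(CPM + 0.1). All 45 pairs are positive, from 0.10 for Cldn5 with Rgs5 to 0.70 for Flt1 with Mfsd2a.

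Summed markers of other cell types and the read total were set beside the members in the same way, over 21 relations. Acta2 was correlated with the 14 smooth muscle markers (r = 0.79, rho = 0.80, adjusted permutation p = 0.00168 for r and 0.00126 for rho, r = 0.84 without the 2 farthest libraries) and with the 15 fibroblast and meninges markers (r = 0.65, rho = 0.56, adjusted permutation p = 0.0308 for r and 0.074 for rho, r = 0.57 without the 2 farthest). The correlation of Acta2 was 0.038 with choroid plexus, 0.071 with blood, 0.015 with striatum and -0.068 with hippocampus markers and -0.22 with reads per library. No relation of the endothelial mean or of the mean of Pdgfrb and Rgs5 passed the adjustment, the largest being that of the endothelial mean with hippocampus markers (r = -0.49, rho = -0.44, adjusted permutation p = 0.148 for r, r = -0.34 without the 2 farthest).

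The pathway around the members was followed with lists of other genes, none of which held a called gene in any of the 4 comparisons by limma. The counts that follow are of genes at an unadjusted p under 0.05, and the genes named were taken from the 2 of smallest p in a list and comparison. Of all genes tested, 6.13% were so in old against young, 7.22% in old nanoligomer against old, 10.2% in APP/PS1 against littermate and 2.96% in APP/PS1 nanoligomer against APP/PS1 libraries, and counts near these shares are no result about a list. Of 26 further endothelial genes, 4 were so in old against young libraries, with Ly6a, a surface antigen of brain endothelium, at 0.65 ± 0.13 (SE, limma adjusted p = 0.21) and Ly6c1 at 0.47 ± 0.12 (SE), in a list with 20 of 26 positive estimates (median 0.094). In old nanoligomer against old libraries 4 of 26 were, among them Ocln, the tight junction protein occludin, at -0.32 ± 0.13 and Tie1 at -0.33 ± 0.14 (SE), in a list with 18 of 26 negative estimates (median -0.076). In APP/PS1 against littermate libraries 3 of 26 were, with Nos3, the endothelial nitric oxide synthase, at -0.33 ± 0.09 and Ramp2, a partner of the adrenomedullin receptor, at -0.48 ± 0.17 (SE). These 2 went against most of their list there, in which 17 of 26 estimates were positive (median 0.047). In APP/PS1 nanoligomer against APP/PS1 libraries 1 of 26 was, Jam2 of the junctions, at -0.27 ± 0.10 (SE), and 16 of 26 estimates were negative (median -0.041).

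Of 18 barrier transporters, 2 were in old against young libraries, 3 in old nanoligomer against old, 4 in APP/PS1 against littermate and 0 in APP/PS1 nanoligomer against APP/PS1 libraries. Slc7a1, a carrier of cationic amino acids, was at -0.18 ± 0.064 in old against young libraries, where Cav1, the coat protein of caveolae, was at 0.27 ± 0.11 (SE). Slc7a1 was at 0.26 ± 0.067 in APP/PS1 against littermate libraries (SE). Slc39a10, a zinc importer, was at 0.48 ± 0.13 in old nanoligomer against old libraries and at 0.34 ± 0.12 in APP/PS1 against littermate libraries, and Slc22a8, an organic anion carrier, was at -0.35 ± 0.14 in old nanoligomer against old libraries (SE). Of the genes of VEGF, angiopoietin and Notch signalling, 0 of 16, 1 of 16, 3 of 17 and 0 of 16 tested were under 0.05 in these comparisons in the same order. Vegfa, the ligand of Flt1 and Kdr, was at 0.21 ± 0.088 in old nanoligomer against old libraries, and Nrp1, their co-receptor, at -0.63 ± 0.20 in APP/PS1 against littermate libraries, with Vegfc, a ligand of lymphatic vessels, at -0.56 ± 0.20 (SE). There 14 of 17 estimates of the list were negative, with a median of -0.16 against 0.0010 for all genes, beside negative estimates of 9 of 10 hippocampus (median -0.89) and 14 of 15 fibroblast and meninges markers (median -0.90) and positive ones of 7 of 7 striatum markers (median 1.03), whose part in the list was not tested. Of 18 genes of the Wnt pathway that maintains the barrier, 1, 1, 0 and 2 were under 0.05, with Apcdd1, a Wnt inhibitor, at -0.43 ± 0.094 in old nanoligomer against old libraries and Adgra2, a Wnt7 co-receptor, at 0.26 ± 0.092 in APP/PS1 nanoligomer against APP/PS1 libraries, with Tspan12, a co-activator of the norrin receptor, at -0.27 ± 0.12 (SE).

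Of 16 further genes tested from the pericyte list, 0, 3, 3 and 1 were under 0.05 in the same order. The list includes Pdgfb and Rgs4, and in whole tissue its reads cannot be assigned to pericytes alone. Kcnj8, a potassium channel subunit of pericytes, was at 0.38 ± 0.14 and Foxc1, a transcription factor, at -0.31 ± 0.13 in old nanoligomer against old libraries (SE). Vtn, vitronectin, was at -0.38 ± 0.078 (SE, limma adjusted p = 0.162) and Rgs4, another regulator of G protein signalling, at 0.58 ± 0.17 (SE) in APP/PS1 against littermate libraries. There 7 of 7 striatum markers had positive estimates (median 1.03), and their part in the pericyte list was not tested. Old nanoligomer female 3 had the highest sums of pericyte (677 CPM) and striatum markers (1821 CPM). These sums were 624 and 906 CPM in APP/PS1 nanoligomer male 2 and 594 and 1038 CPM in young male 2. In old male 3 they were 584 and 530 CPM. Every other library used had a lower pericyte sum than these. APP/PS1 female 1, also above 300 CPM of striatum markers, had sums of 445 and 1705 CPM. The relation between the sums was not tested. Of 13 or 14 further smooth muscle genes tested, 0, 1, 3 and 1 were under 0.05, with Myh11 at -0.57 ± 0.19 in old nanoligomer against old libraries and, in APP/PS1 against littermate libraries, Casq2, a calcium store protein, at 0.70 ± 0.19 and Tagln, transgelin, at -0.51 ± 0.19 (SE). Tpm2, a tropomyosin, was at -0.41 ± 0.17 in APP/PS1 nanoligomer against APP/PS1 libraries (SE). The list for activated or fenestrated endothelium gave 2 of 6 in old against young libraries and 0 in the other 3 comparisons. The 2 were Lcn2 at 3.34 ± 1.04 (SE, limma adjusted p = 0.591) and Icam1, a leukocyte adhesion molecule, at 0.60 ± 0.24 (SE). In whole tissue neither can be assigned to endothelium.

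Markers of the other brain cells were measured beside the members and none was called by limma. Microglial markers had positive estimates in 8 of 8 genes in old against young libraries (median 0.25, with 5 under an unadjusted p of 0.05) and negative ones in 8 of 8 in APP/PS1 nanoligomer against APP/PS1 libraries (median -0.21, with 0 under it). In the second of these, where Pdgfrb, Pecam1 and Kdr had negative estimates, 8 of 8 astrocyte markers (median -0.15) and 6 of 6 oligodendrocyte markers (median -0.13) were negative too, and their part in the members' values was not tested. Neuronal markers had medians between 0.012 and 0.066 in the 4 comparisons. Thalamus markers had medians between -0.42 and -0.21.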

How the data were processed

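Polyadenylated RNA of hippocampus was sequenced (TruSeq kits, NovaSeq instrument, per the labels' protocols). Per the submitters' processing notes STAR, DESeq2 and mm10 were used; which step each served, their versions, the read counter, strand setting and annotation are not stated there. The authors deposited 4 tables of 12 libraries with size-factor-normalized counts, a signal scaled within each table, and whole reads were recovered for 100% of the values (tolerance 0.001 reads). The 12 libraries that stand in 2 tables had identical reads in both. The column of APP/PS1 nanoligomer male 3 is spelled 1 letter away from its title and was assigned as the remaining library of its group. Reads of paralogs or overlapping genes could not be separated.

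The members and gene lists were chosen with earlier results of these data known. Each comparison was fitted in its own table with limma 3.58.1 (R 4.3.3, intensity trend, sex term) on log2(value + 1) for genes averaging 10 or more; under a Benjamini-Hochberg adjusted p of 0.05 a gene was called. The fitting steps were also run on simulated counts with the same dispersion for every gene and no differences in tissue composition. That run therefore cannot say how the fits behave where composition differs between libraries. Alternatives were edgeR 4.0.16, DESeq2 1.42.0, other filters, pseudocounts, scalings and terms, a replicate block and leaving out each library. All 10 members were named in each comparison, and of each other list, with none called, genes among the 2 of smallest p. Lists for other brain cells (astrocyte, microglia, oligodendrocyte, neuron, thalamus) were measured beside them.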

Additional observations from a re-analysis of the deposited data

Results flagged for a closer look

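In 60 combinations of a member and a group, a library was flagged where its gap to the nearest other library was large for the range of the group (Dixon's test), and 7 were. Chance flags about 1 in 20. APP/PS1 nanoligomer female 2 stood above the other 4 libraries used of its group for Flt1 (113 CPM, the others 69.3 to 78.0), Cdh5 (25.8 CPM, the others 20.3 to 21.3) and Rgs5 (47.1 CPM, the others 30.1 to 34.5). Old male 3 stood above the other old libraries for Cldn5 (65.7 CPM, the others 29.2 to 41.2) and Pecam1 (36.01 CPM, the others 25.8 to 29.0). Young male 2 stood below the other young libraries for Kdr (18.1 CPM, the others 22.6 to 24.7), and young male 1 for Rgs5 (25.4 CPM, the others 31.9 to 33.3).

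The library left out for its low depth, APP/PS1 nanoligomer female 3, held 6 members above every littermate library. The share of all genes that stood so there was not counted, so this count is no result about the members. That library had reads in 9509 genes, against at least 17358 in the libraries used. Flt1 was at 442 CPM, Acta2 at 351 CPM, Kdr at 242 CPM, Rgs5 at 195 CPM, Cdh5 at 84.3 CPM and Slco1a4 at 65.7 CPM, against highest littermate values of 85.5, 21.9, 26.2, 42.9, 28.1 and 34.5 CPM for the same genes in that order. Mfsd2a and Pdgfrb had 0 reads there, Pecam1 had 1 and Cldn5 had 5, so endothelial and pericyte genes stood on both sides of the range of the other libraries.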

How the results depend on the processing

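No member was called in any of the 4 comparisons by limma, edgeR or DESeq2, under any filter, pseudocount, scaling or model term tried, with any single library left out, or in the sets of libraries chosen after seeing the data, and no sex or arm difference of a member was called by the alternatives run for it. Of 940 alternative fits of the 40 fold changes, 896 kept their direction and side of the threshold and 44 changed sign; the cause was not tested. Over all genes the count called was 6 in old against young libraries, against 1 with the replicate block, 123 by DESeq2 and 11 without old female 1; it was 8 in APP/PS1 against littermate libraries, against 12 without the filter, 10 with the replicate block, 253 by DESeq2, 21 without APP/PS1 female 1 and 256 without APP/PS1 female 3, and 0 of these were members. Deviations of same-numbered libraries from their group and sex means correlated at r from -0.25 to 0.29. Those means rest on 2 or 3 libraries and the deviations hold tissue composition, so r cannot decide whether the numbers mark a real pairing. With the replicate block no member was called, 0 of 10 in each comparison.

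Leaving out 1 library gave ranges that crossed 0 for 13 fold changes, none larger than 0.10 in the full fit. In old against young libraries these were Cldn5 (-0.17 to 0.037), Flt1 (-0.0071 to 0.095), Cdh5 (-0.058 to 0.092), Slco1a4 (-0.034 to 0.16), Rgs5 (-0.033 to 0.085) and Acta2 (-0.041 to 0.23). In old nanoligomer against old libraries it was Mfsd2a (-0.15 to 0.030). In APP/PS1 against littermate libraries they were Cldn5 (-0.048 to 0.030), Kdr (-0.018 to 0.18) and Cdh5 (-0.073 to 0.033). In APP/PS1 nanoligomer against APP/PS1 libraries they were Flt1 (-0.15 to 0.068), Rgs5 (-0.052 to 0.11) and Acta2 (-0.26 to 0.22). With the low-depth library included, Flt1 was at 0.27, Kdr at 0.18, Cdh5 at 0.087 and Mfsd2a at -1.34 in that comparison, where the median of all genes moved to -0.68.

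Libraries high in striatum markers (above 300 CPM) and in choroid plexus markers (above 1000 CPM) were left out as alternatives chosen after seeing the data. Without the striatum-high libraries, in old against young libraries Flt1 was at -0.0087, Cdh5 at -0.097, Pdgfrb at -0.00066 and Acta2 at -0.11, Mfsd2a was at 0.012 in old nanoligomer against old libraries, Cldn5 was at 0.010 and Cdh5 at 0.023 in APP/PS1 against littermate libraries, and Rgs5 was at -0.080 in APP/PS1 nanoligomer against APP/PS1 libraries. Without the choroid-high libraries, Rgs5 was at -0.061 in old against young libraries, and Rgs5 was at -0.041 and Acta2 at -0.66 in APP/PS1 nanoligomer against APP/PS1 libraries. The latter fit left no nanoligomer female, so with the sex term its estimates rest on males alone. Choroid plexus content and sex cannot be told apart there. TMM moved none of the 60 group means by 1 SD. Acta2, with 94 reads in its lowest library, has the widest limits.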
